A study of Mus musculus with 24 samples.

Results

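The genes described here encode the translation initiation factors (eIF) and elongation factors (eEF) of mouse skeletal muscle, with the kinases, binding proteins and modifying enzymes that carry an eIF or eEF name. They were taken by symbol alone, as every gene whose symbol on the array begins with Eif or Eef followed by a digit. The platform named 58 such genes on 95 probes, of 16593 genes in all, and 49 of them had a probe detected on at least 4 arrays and were tested among 8945 genes. The symbol rule itself used no measured value, but it was set with earlier results of these data known, and testing required detection.

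Expression was measured on Illumina bead arrays hybridised with total RNA of the gastrocnemius, a mixed fast calf muscle, from male mice labelled 6 to 7 weeks of age, without saying whether at the start or the end of treatment. The healthy group was 4 untreated wild-type C57Bl/10ScSnJ mice. The other 20 mice were mdx, a strain that lacks full-length dystrophin and whose muscle degenerates and regenerates, in 4 groups of 5: sedentary with PBS injections, running in wheels for 7 weeks with PBS injections, sedentary with sActRIIB-Fc, and running with sActRIIB-Fc. The sActRIIB-Fc protein is a soluble activin receptor IIB joined to an antibody Fc part, which binds myostatin and activins, and was given into the peritoneum weekly at 5 mg/kg. The dystrophin mutation of mdx is inherited and present in every cell, and all 4 mdx groups share it, while no wild-type group was injected or ran. All 24 arrays are called by group and number, and p-values measure the spread between these mice.

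Translation starts when eIF2 brings the initiator tRNA to the small ribosomal subunit, eIF3 and the eIF4 cap complex recruit the mRNA, and eIF5 and eIF5B allow the large subunit to join. eIF2B reloads eIF2 with GTP, and stress kinases that phosphorylate eIF2 block that step. Elongation then depends on eEF1A, which delivers aminoacyl-tRNA, and on eEF2, which moves the ribosome along. Muscle is known for its own eEF1A form, encoded by Eef1a2, and growth signals through mTORC1 act on this machinery by phosphorylating the eIF4E-binding proteins and, through S6 kinase, eEF2 kinase.

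A few facts of the arrays bear on every value below. Levels are log2 signals after background correction and quantile normalization, and a level of a probe is compared only with the same probe on other arrays. Wild-type arrays detected 10404 to 10634 probes and mdx arrays 10938 to 11971. The 8 muscle fibre markers summed to a signal of 205000 to 216000 in wild type and 207000 to 214000 in PBS-injected mdx, and 0 of them differed. These are very bright probes, with a mean log2 level of 14.62 to 14.71 in wild type. Quantile normalization gives the brightest probes nearly the same values on every array, so the sums cannot show whether fibre content was equal. In the same comparison 7 of 7 markers of regenerating fibres, 6 of 7 of macrophages (among them Adgre1, C1qa and Mrc1, with no probe named for Cd68 or Csf1r) and 6 of 6 of fibroblasts and matrix were higher. The summed macrophage signal was 944 to 1550 in wild type and 10500 to 17400 in PBS-injected mdx, and that of regenerating fibres 1370 to 2030 and 22200 to 34200, while the endothelial sums overlapped at 1750 to 2150 and 1670 to 2230. Of the lymphocyte markers only Cd79b was tested, and Cd3e, Cd3g, Cd8a, Cd79a and Ms4a1 were not detected. The part of these cells in the results was not tested, and in whole muscle fewer cells of a type and less RNA per cell cannot be told apart. Hepatocyte transcripts varied within groups, with a summed signal of 383 to 20900 in wild type and 341 to 1890 in PBS-injected mdx (0 of 6 higher and 1 lower, with Alb, Fgb and Apoh not detected), so calls were also made without the 4 arrays richest in them (wild type 2, running 2 and the combined treatment 1 and 2). In sequence, 39 of the 49 tested genes had a promoter window in the RefSeq table.

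Against wild type, 14 of the 49 factor genes differed in PBS-injected mdx muscle at an adjusted p under 0.05, which is 28.6% of them beside 37.7% of all tested genes. Of these, 4 were higher (background 19.3%) and 10 lower (background 18.5%). The genes that rose were Eif2ak2, Eif1a, Eif4a1 and Eif4e2. The genes that fell were Eef2k, Eef1akmt1, Eif1ad, Eif3j1, Eif4ebp2, Eif2s2, Eif4e, Eif2b2, Eif2b5 and Eif5. None of the 14 reached 2-fold, whereas 7.27% of all tested genes passed the test with at least that size. The median difference over the 49 was -0.09 on the log2 scale beside -0.05 over all tested genes, and the median size 0.18 beside 0.26. Without the 4 arrays rich in hepatocyte transcripts the same 14 genes passed, but only wild type 2 among those arrays belongs to this comparison. The mean log2 level of the hepatocyte markers was still 8.25 and 8.20 on wild type 1 and 3. That is above the 5.23 to 7.96 of the PBS-injected mdx arrays, so leaving those arrays out did not even out the groups.

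The split between higher and lower depended on how the arrays were scaled to each other. Scaling to equal medians of all probes in place of quantile normalization gave 5 higher and 9 lower, and moved the median of all tested genes to 0.07, with 2202 of 3064 called genes higher in place of 1725 of 3376. Scaling to equal medians of the detected probes gave 2 higher and 22 lower, with an all-gene median of -0.19 and 1344 of 4226 called genes higher. Under all 3 scalings Eif2ak2 and Eif1a were called higher and Eef2k, Eef1akmt1, Eif1ad, Eif3j1, Eif2s2, Eif2b5 and Eif5 lower. Relative to the all-gene median, Eif2ak2 lay 0.78 to 0.91 above it and Eef2k 0.86 below it under each scaling.

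**Figure D1:**
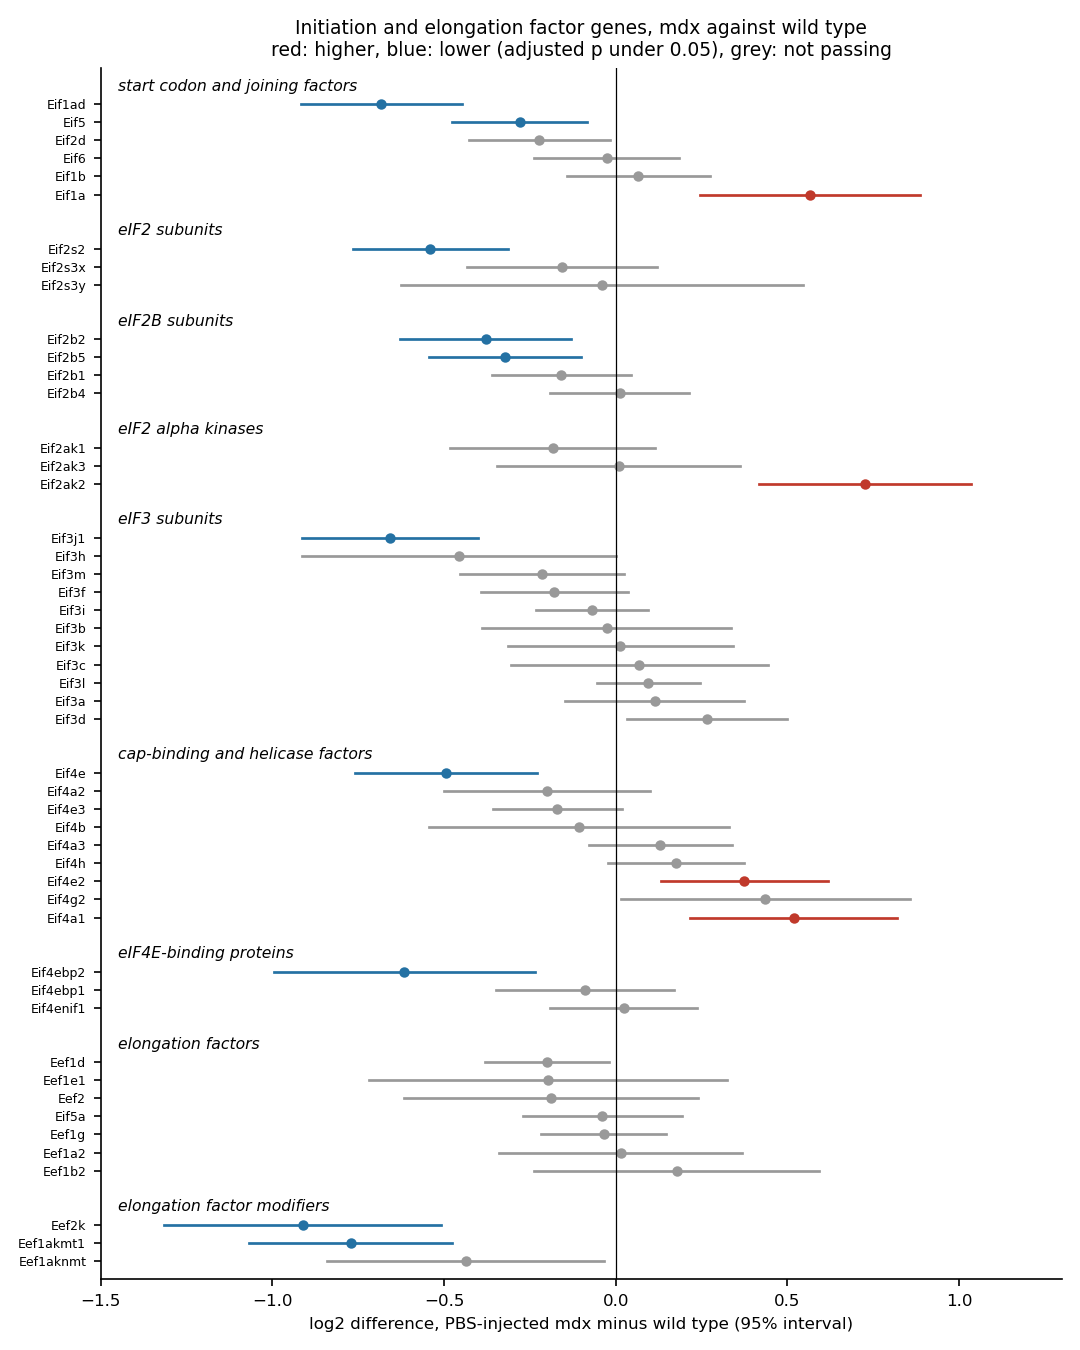
Difference of each of the 49 tested factor genes between PBS-injected mdx (n = 5) and wild type (n = 4), with log2 difference on the horizontal axis and the 95% interval as a line, grouped by role. The 4 genes in red and the 10 in blue passed the test, and none of the 7 elongation factors did.

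The first role group held the factors that find the start codon and join the subunits, with the relative Eif1ad counted among them. In it 1 gene rose, 2 fell and 3 did not pass the test. Eif1a encodes eIF1A, which holds the scanning small subunit in its open form. Its log2 levels were 8.06, 7.94, 7.67 and 7.57 in wild type and 8.32, 8.57, 8.47, 8.24 and 8.28 in PBS-injected mdx. Every mdx array lay above every wild-type array, and the difference was 0.57 ± 0.16 (SE), or 1.48-fold, with an adjusted p of 0.0059. Eif1ad, a relative with an eIF1A-like domain, went the other way, with 8.01, 7.85, 7.92 and 8.01 in wild type and 7.09, 7.19, 7.19, 7.40 and 7.45 in mdx. These groups were also separate, and the difference of -0.68 ± 0.11 (adjusted p = 4.9e-05) was the one with the lowest p among the 49. Eif5, the activator of GTP hydrolysis by eIF2, fell by 0.28 on the log2 scale (adjusted p = 0.023), with overlapping groups. Its call rested on the brightest of 3 probes, since the other probes differed by -0.01 and -0.06, and it was lost for the mean of the probes (-0.12, adjusted p = 0.37) and without wild type 1 (-0.20, adjusted p = 0.11). Eif2d, which can place initiator tRNA without eIF2, had a difference of -0.22 (adjusted p = 0.079), Eif1b one of 0.07 and Eif6, which keeps the large subunit from joining early, one of -0.03. Eif5b and Eif1ax were detected on no array.

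Of the 3 tested eIF2 subunits only Eif2s2 passed. It encodes the beta subunit, which contacts eIF5 and eIF2B. Wild-type levels were 11.34, 11.33, 11.25 and 11.24, and PBS-injected mdx levels 10.62, 10.82, 10.71, 10.71 and 10.90. The highest mdx array lay below the lowest wild-type array, and the difference was -0.54 ± 0.11, or 1.45-fold lower (adjusted p = 4.2e-04), with -0.67 for a dimmer probe of the gene. The gamma subunit has an X-linked and a Y-linked copy, and Eif2s3x differed by -0.16 and Eif2s3y by -0.04 (adjusted p = 0.38 and 0.93). The alpha subunit gene Eif2s1, which carries the regulated phosphorylation site, had no probe named here.

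The exchange factor eIF2B was lower in 2 of its 4 tested subunits. Eif2b5 encodes the catalytic epsilon subunit, and its levels were 10.66, 10.55, 10.76 and 10.82 in wild type and 10.32, 10.29, 10.24, 10.39 and 10.64 in PBS-injected mdx. Array 5 of the mdx group overlapped the wild-type range, and the difference was -0.32 ± 0.11 (adjusted p = 0.021), with -0.37 and -0.36 for 2 further probes. Eif2b2, the beta subunit, differed by -0.38 ± 0.12 (adjusted p = 0.016), again with mdx array 5 at 8.86 among wild-type values of 8.68 to 8.96. The other tested subunits, Eif2b1 and Eif2b4, had differences of -0.16 and 0.01 and did not pass. The gamma subunit gene Eif2b3 had no probe named here. Leaving out mdx 3 or wild type 4 ended both calls, at -0.31 and -0.33 for Eif2b2 and -0.29 and -0.28 for Eif2b5, and leaving out wild type 3 ended that of Eif2b5 at -0.30. Scaling to equal medians of all probes ended the call of Eif2b2.

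Of the 3 kinases of eIF2 alpha that were tested, Eif2ak2 alone passed. It encodes PKR, which is switched on by double-stranded RNA and whose gene is induced by interferon. Levels were 6.64, 6.55, 6.80 and 7.07 in wild type and 7.57, 7.32, 7.64, 7.40 and 7.51 in PBS-injected mdx. The groups were separate, and the difference of 0.73 ± 0.15 was a 1.65-fold rise (adjusted p = 5.0e-04). The heme-regulated kinase gene Eif2ak1 differed by -0.18 and Eif2ak3, which encodes the endoplasmic reticulum kinase PERK, by 0.01 (adjusted p = 0.33 and 0.97). Eif2ak4, which encodes the amino acid sensor GCN2, was detected on no array.

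The start of Eif2ak2 is shown because this gene had the largest rise among the 49. The 60 bases, on the minus strand of GRCm38.p6 at chr17:78882543-78882602, run from 30 before the RefSeq transcript start to 30 after it, and the capitals mark a match to 2 copies of GAAA set 2 bases apart, the core of the element known from interferon-stimulated genes.
Eif2ak2: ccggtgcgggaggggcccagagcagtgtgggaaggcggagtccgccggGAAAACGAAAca
The match begins 19 bases into the transcript. The motif was searched with any bases in the gap, on both strands of windows of 250 bases before and 50 after each start. It was found in 3.44% of all windows, 2.92% of those of all tested genes and 5.77% of those of the factor genes. By gene, 3 of the 39 factor genes held it (Eif2ak2, Eif2s3x and Eif3a), or 7.69% beside 3.61% of all tested genes with a window. The match is a description of the letters only.

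The eIF3 complex, the largest initiation factor, showed 1 lower gene among 11 tested subunits. Eif3j1, whose product sits loosely in the mRNA channel of the small subunit, had levels of 7.87, 7.83, 7.66 and 7.74 in wild type and 6.82, 7.47, 7.14, 7.07 and 7.08 in PBS-injected mdx. No mdx array reached the wild-type range, and the difference was -0.66 ± 0.12 (adjusted p = 2.1e-04), or 1.58-fold lower. The other 10 subunits did not pass under quantile normalization, and they ranged from -0.46 for Eif3h to 0.27 for Eif3d. Eif3d was the only gene outside the 14 whose groups did not overlap, at 11.25 to 11.47 in wild type and 11.47 to 11.71 in mdx, a gap below the rounding shown, with an adjusted p of 0.066. Groups that did not overlap were seen for 11 of the 49 genes (22.4%) beside 32.4% of all tested genes. Eif3a, the scaffold subunit, differed by 0.11 ± 0.13, and Eif3e was detected on 2 arrays only and was not tested. Eif3f was called lower under both median scalings (-0.30 with all probes and -0.55 with detected probes), and Eif3i and Eif3m with detected probes. The probe of Eif3m was detected on only 11 of the 24 arrays.

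Among the 9 tested cap-binding and helicase genes, 2 rose and 1 fell. Eif4a1 encodes the main RNA helicase of the cap complex, and its levels were 11.59, 11.47, 11.40 and 11.44 in wild type and 11.99, 11.95, 12.08, 12.08 and 11.88 in PBS-injected mdx. The groups were separate, with a difference of 0.52 ± 0.15, or 1.43-fold (adjusted p = 0.0071), and a dimmer probe gave 0.53. Under equal medians of the detected probes the difference was 0.19 (adjusted p = 0.26), 0.38 above the all-gene median. Eif4a2, the helicase form that is prominent in muscle and brain, differed by -0.20, and Eif4a3, which belongs to the exon junction complex, by 0.13, and neither passed under quantile normalization. With equal medians of the detected probes Eif4a2 was called lower (-0.57, adjusted p = 0.0063).

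Eif4e encodes the protein that binds the mRNA cap for translation. Its levels were 7.31, 7.33, 7.32 and 6.84 in wild type and 6.62, 6.49, 6.78, 7.03 and 6.60 in PBS-injected mdx. Wild type 4 fell within the mdx range, and the difference was -0.49 ± 0.13 (adjusted p = 0.0038). Eif4e2 encodes a cap-binding relative (4EHP) that does not hold eIF4G and is known as a translational repressor, and its levels were 8.96, 9.01, 9.30 and 9.00 in wild type and 9.50, 9.34, 9.40, 9.52 and 9.46 in mdx. The groups were separate by a small margin, with a difference of 0.37 ± 0.12 (adjusted p = 0.014), and the call was lost for the mean of its 3 kept probes (adjusted p = 0.11). The 2 median scalings each ended a call here, Eif4e with all probes (-0.24, adjusted p = 0.14) and Eif4e2 with detected probes (0.24, adjusted p = 0.086). Eif4e3, another family member, did not pass for its brightest probe under quantile normalization (-0.17, adjusted p = 0.15). Its 2 dimmer probes were lower, at -0.39 and -0.58 (adjusted p over probes 0.020 and 3.1e-04), and the brightest was called lower with equal medians of the detected probes (-0.38, adjusted p = 0.0043). Eif4g2, which encodes the scaffold DAP5, differed by 0.44 ± 0.20 (adjusted p = 0.094) and was called higher in 3 of 21 alternatives, equal medians of all probes among them (0.62, adjusted p = 0.034). Eif4h differed by 0.18 and Eif4b by -0.11, and neither passed. The scaffold gene Eif4g1 had no probe named here.

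Of the eIF4E-binding proteins, which keep eIF4E from eIF4G until mTORC1 phosphorylates them, Eif4ebp2 fell. Its levels were 9.01, 8.54, 8.69 and 8.80 in wild type and 7.85, 8.53, 8.09, 7.86 and 8.40 in PBS-injected mdx. The difference was -0.62 ± 0.18, or 1.53-fold lower (adjusted p = 0.011), and the nearest arrays of the groups were 8.54 and 8.53. Scaling to equal medians of all probes left it at -0.48 with an adjusted p of 0.054. Eif4ebp1, the form that responds to insulin and amino acids in muscle, differed by -0.09 ± 0.13 (adjusted p = 0.60), with a 95% interval of -0.35 to 0.17. With equal medians of the detected probes it was called lower (-0.42, adjusted p = 0.0090). Eif4enif1, which carries eIF4E into the nucleus, differed by 0.02, and Eif4ebp3 was detected on no array.

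The elongation factors themselves gave 0 calls among 7 genes under quantile normalization, with differences from -0.20 to 0.18. Eef1a2 stood at 13.98, 14.32, 14.30 and 14.52 in wild type and 14.05, 14.37, 14.29, 14.24 and 14.53 in PBS-injected mdx. The ranges nearly coincided, and the difference was 0.01 ± 0.17, with a 95% interval of -0.34 to 0.37. For so bright a probe quantile normalization assigns values from a shared set, which can narrow differences. The level was 14.366 on PBS array 2, running array 5 and sActRIIB-Fc array 4 alike. Over 21 alternatives the Eef1a2 difference ran from -0.42, outside that interval, to 0.22, with adjusted p-values from 0.052 up. Its dimmer kept probes gave 0.04 and -0.23. Eef2 differed by -0.19 ± 0.21 (interval -0.62 to 0.24), and Eif5a, the hypusine-carrying factor that helps stalled peptide bonds form, by -0.04 ± 0.11. The exchange factor subunits for eEF1A differed by 0.18 for Eef1b2, -0.20 for Eef1d and -0.03 for Eef1g, and Eef1e1, a part of the tRNA synthetase complex, by -0.20. Under equal medians of the detected probes Eef1d, Eef1g and Eif5a were called lower, by 0.52, 0.47 and 0.29 on the log2 scale, and Eef1d was called lower in 8 of 21 alternatives, equal medians of all probes among them (-0.26). A dimmer kept probe of Eef1d, detected on 14 arrays, was higher instead (0.39, adjusted p over probes 0.026). The mean of its kept probes gave 0.10. Eef1a1, the eEF1A form of most other tissues, had a single probe, detected on no array, so nothing can be said of its level.

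The enzymes that act on elongation factors showed the largest drops of the 49. Eef2k encodes the kinase that phosphorylates and slows eEF2. Its levels were 8.96, 8.95, 8.90 and 9.20 in wild type and 7.72, 8.17, 8.09, 8.14 and 8.33 in PBS-injected mdx. The gap between the groups was wide, and the difference of -0.91 ± 0.20 was a 1.88-fold fall (adjusted p = 7.1e-04). Eef1akmt1, a lysine methyltransferase of eEF1A, had 10.21, 10.32, 10.45 and 10.14 in wild type and 9.39, 9.52, 9.52, 9.59 and 9.54 in mdx, again without overlap. That was a difference of -0.77 ± 0.14, or 1.71-fold lower (adjusted p = 1.6e-04). Eef1aknmt, another methyltransferase of eEF1A, differed by -0.44 ± 0.20 and did not pass (adjusted p = 0.081). Both called genes passed under all 21 alternative settings and arrays left out, with differences of -1.07 to -0.68 for Eef2k and -0.99 to -0.68 for Eef1akmt1.

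**Figure D2:**
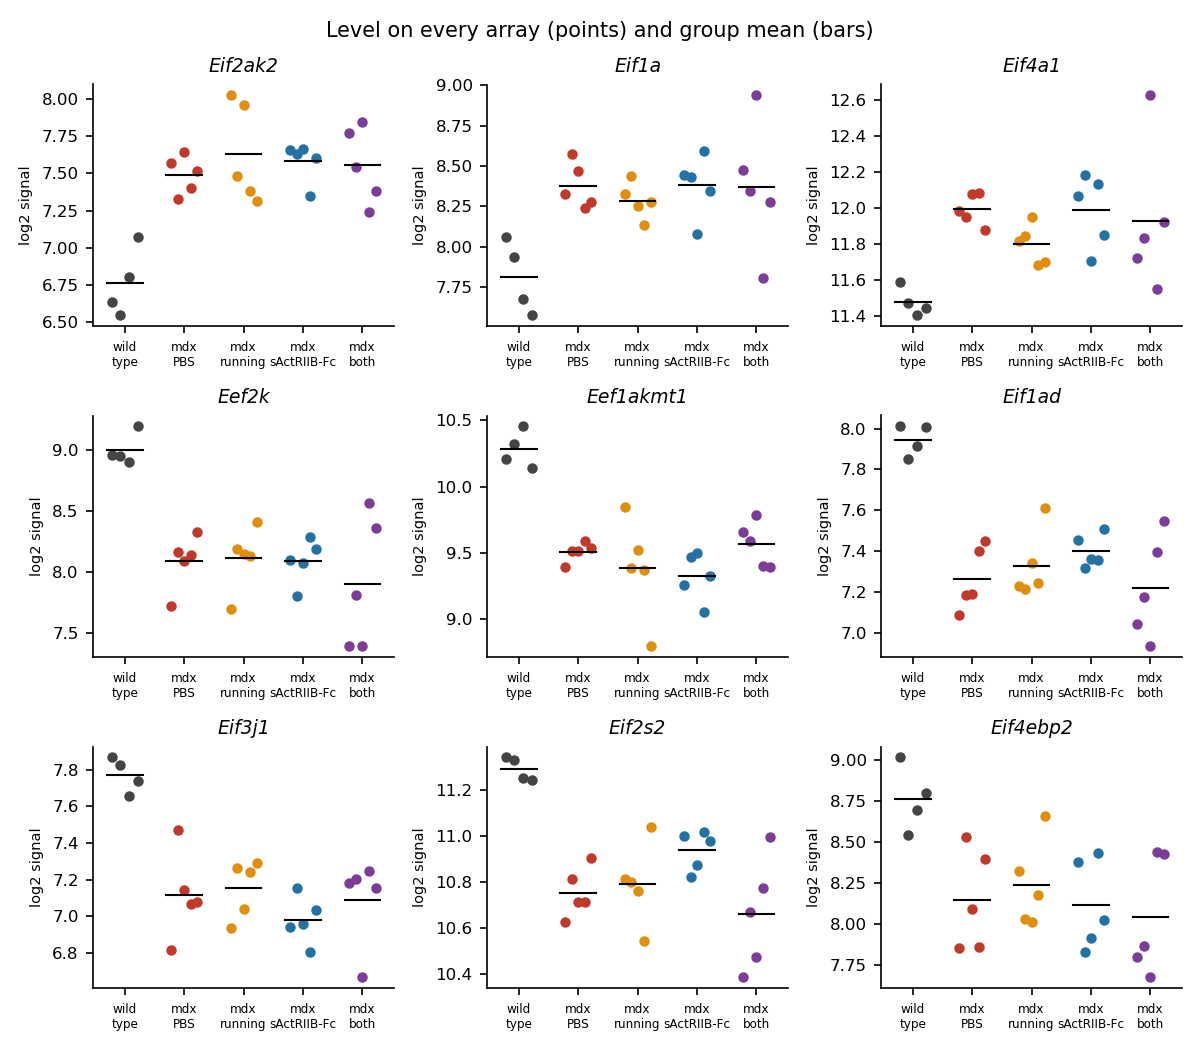
Log2 signal on each array (points) and group mean (bars) for 9 of the 14 genes called in PBS-injected mdx against wild type, in all 5 groups, with a separate vertical scale for each gene. The wild-type points of Eef2k lie between 8.90 and 9.20 and all PBS-injected mdx points at or below 8.33, and for Eif4a1 array 3 of the combined treatment is highest at 12.63.

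Promoter windows are shown for 3 called genes, because they hold the E-box CACGTG, a motif bound by MYC and related factors. It reads the same on both strands, and is marked in capitals. Each stretch ends at the base before a RefSeq transcript start of GRCm38.p6: chr3:138527025-138527267 on the plus strand for Eif4e, chr7:120842731-120842830 on the plus strand for Eef2k and chr11:69672424-69672627 on the minus strand for Eif4a1.
Eif4e: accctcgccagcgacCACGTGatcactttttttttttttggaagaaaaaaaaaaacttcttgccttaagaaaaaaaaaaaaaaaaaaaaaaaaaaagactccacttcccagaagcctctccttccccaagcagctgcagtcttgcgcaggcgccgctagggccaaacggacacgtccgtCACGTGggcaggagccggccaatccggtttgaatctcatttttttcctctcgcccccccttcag
Eef2k: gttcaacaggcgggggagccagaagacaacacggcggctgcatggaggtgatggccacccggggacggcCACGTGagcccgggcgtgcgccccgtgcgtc
Eif4a1: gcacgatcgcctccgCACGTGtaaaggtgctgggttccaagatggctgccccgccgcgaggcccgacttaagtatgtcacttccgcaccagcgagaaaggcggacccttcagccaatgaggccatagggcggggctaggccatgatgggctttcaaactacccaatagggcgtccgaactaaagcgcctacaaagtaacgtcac
The genes moved differently, since Eif4a1 rose and Eif4e and Eef2k fell. The E-box was found in 7.15% of all windows, in 9.87% of those of all tested genes and in 25% of those of the 39 factor genes with a window. By gene, 11 of 39 factor genes held it in some window, or 28.2% beside 11.8% of all tested genes with a window. Of the 11, 3 were among the 12 called genes with a window. Only 1 of the 2 windows of Eif4e and 1 of the 3 of Eef2k held it, and the letters alone do not show binding.

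A ratio taken within an array does not change when the whole array is scaled by a constant, and 11 pairs of related genes were also compared as the difference of their log2 levels on each array. These pairs were formed with earlier results of the same arrays known, and a ratio that holds a called gene partly restates its call. An exact two-sided permutation test over the 9 arrays, whose smallest possible p is 0.0079, gave that value for 4 pairs, with 0.022 after Benjamini-Hochberg adjustment over the 11 pairs. Eif4a1 rose relative to Eif4a2 by 0.72, and relative to the wild-type mean the ratio was -0.12, 0.01, -0.12 and 0.22 in wild type and 0.73, 0.64, 0.65, 0.82 and 0.75 in PBS-injected mdx. Eif4e fell relative to Eif4e2 by 0.87, with mdx arrays from -1.01 to -0.62 and wild-type arrays from -0.29 to 0.21. Eif4ebp1 rose relative to Eif4ebp2 by 0.53, and Eif2ak1 fell relative to Eif2ak2 by 0.91. The ratio of Eif2ak2 to Eif2ak3 was higher by 0.72 (exact p = 0.016, adjusted 0.035). Smaller shifts were seen for Eif4a1 against Eif4a3 (0.39, exact p = 0.024, adjusted 0.044) and Eif4e2 against Eif4e3 (0.54, exact p = 0.032, adjusted 0.0499). The 4 remaining pairs did not pass, among them Eif2s3x against Eif2s3y at -0.12. All 11 differences kept their sign under 15 alternatives. With 1 mdx array left out, the 4 pairs named first had adjusted p-values from 0.052 up, as 4 arrays against 4 allow few splits. The median scalings ended the calls of Eif4ebp1 against Eif4ebp2 and of Eif4a1 against Eif4a3, and the last was lost in 12 of the 15 alternatives. Eif4e2 against Eif4e3 was lost in 10 of the 15, the deposited log2 values among them, and Eif2ak2 against Eif2ak3 in 8.

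**Figure D3:**
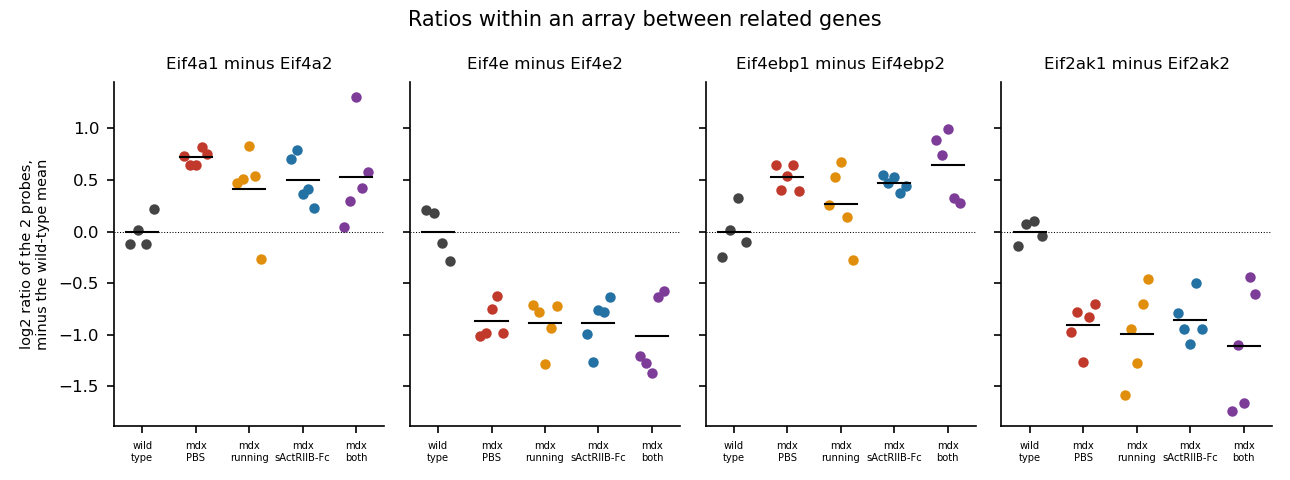
Log2 ratio between related genes on each array (points; bars, group means), set to a wild-type mean of 0, for the 4 pairs with the lowest exact p. PBS-injected mdx arrays are separate from wild type in each, and array 5 of the running group lies at -0.26 for Eif4a1 over Eif4a2, below the wild-type arrays.

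The neighbouring steps of translation gave calls in both directions in PBS-injected mdx against wild type, where 19.3% of all tested genes were higher and 18.5% lower. Of 11 tested genes of mTORC1 signalling, Sesn1, a stress-induced inhibitor, rose by 0.36 and 10 did not pass. The integrated stress response, the transcriptional programme that follows eIF2 phosphorylation, gave 5 higher and 6 lower of 14 tested. The amino acid enzymes Psat1 (1.20), Asns (0.94) and Mthfd2 (0.54), the factor Atf3 (0.96) and the phosphatase subunit Ppp1r15b (0.34) rose. Its transcription factors Atf4 (-0.37), Ddit3 (-0.53) and Atf5 (-0.53), with Chac1 (-1.94), Ppp1r15a (-0.62) and Vldlr (-0.80), fell. The median over the 14 was -0.19.

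Partners of poly(A) and the cap were split, with Dap (0.65) and Pabpn1 (0.33) higher and Paip1 (-0.49) and Paip2b (-0.49), regulators of poly(A)-binding protein, lower of 11 tested. Of 8 termination and recycling genes the release factor GTPase Gspt1 rose (0.49), and its partner Etf1 (-0.27) and the recycling ATPase Abce1 (-0.44) fell. Cytosolic tRNA synthetase genes gave 0 higher and 5 lower of 19, where 19.3% of all tested genes were higher and 18.5% lower. The 5 were Hars (-0.44), Nars (-0.33), Sars (-0.32), Farsb (-0.25) and the scaffold Aimp1 (-0.22). Mitochondrial translation factors gave 0 higher and 3 lower of 8 (Mtrf1 -0.49, Gfm2 -0.48 and Mrrf -0.30). Of 3 tested enzymes that build diphthamide, the modified residue of eEF2, Dph3 (-0.58) and Dph5 (-0.54) fell. The 2 hypusine enzymes, Dhps and Dohh, were not tested.

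The 3 treated mdx groups were also set against the same 4 wild-type arrays, so the comparisons are not independent of each other. Running mdx muscle had 3 factor genes higher (background 17.8%) and 13 lower (background 16.9%), in all 32.7% of 49 beside 34.7%. Muscle given sActRIIB-Fc had 4 higher (background 19.8%) and 10 lower (background 19.1%), in all 28.6% beside 38.8%. The combined treatment had 5 higher (background 19.5%) and 12 lower (background 19.7%), in all 34.7% beside 39.3%. With equal medians of all probes the higher and lower genes were 3 and 9 with running, 5 and 9 with sActRIIB-Fc and 4 and 10 with both, and with equal medians of the detected probes 2 and 24, 2 and 28, and 3 and 22. The running count of 16 was 10 without wild type 1 or without wild type 4, and 9 without the 4 arrays rich in hepatocyte transcripts. The combined count of 17 was 9 in a model of those 2 groups alone. For Eif2ak2 the differences were 0.73 with PBS, 0.87 with running, 0.82 with sActRIIB-Fc and 0.79 with both. Eef2k gave -0.91, -0.88, -0.91 and -1.10 in the same order, and Eef1akmt1 -0.77, -0.90, -0.96 and -0.72. For Eif1ad the values were -0.68, -0.62, -0.55 and -0.73, for Eif3j1 -0.66, -0.62, -0.79 and -0.68, and for Eif2s2 -0.54, -0.50, -0.35 and -0.63. Eif1a gave 0.57, 0.47, 0.57 and 0.56. Eif4a1 passed with PBS, sActRIIB-Fc and both (0.52, 0.51 and 0.45) but had 0.32 with running, which did not pass. Both median scalings ended its calls with sActRIIB-Fc (0.40 and 0.12) and with both treatments (0.40 and 0.155).

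Some genes passed in treated groups that had not passed with PBS. Eif3h, an eIF3 subunit, fell by 0.76 with running, 0.84 with sActRIIB-Fc and 0.57 with both, beside -0.46 with PBS. Its wild-type levels were 6.56, 6.87, 7.40 and 6.50, and wild type 3 stood highest; the running call was lost without that array and with equal medians of all probes. The combined call was lost in 10 of 21 alternatives, equal medians of all probes among them and the fits without wild type 2 or 3 or combined 4 or 5. Eif4e3 fell by 0.29 with running and 0.31 with both, and Eif3f by 0.27 and 0.28, with the call lost in 12 and 7 of 21 alternatives. Eif2b1 fell by 0.26 with running, lost in 11 alternatives, and Eif3m by 0.33 with sActRIIB-Fc, lost in 7. Eif3m lay close to background, detected on 3 of 4 wild-type arrays and 1 of 5 with sActRIIB-Fc. Eif3d rose by 0.28 with both treatments, a call lost in 11 alternatives and at -0.01 under equal medians of the detected probes. Differences between the mdx groups were tested directly and are given next.

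Within mdx muscle no treatment changed a factor gene at an adjusted p under 0.05. By limma the count was 0 of 49 for running (background 0.0112%), for sActRIIB-Fc (background 0.00%) and for both together (background 0.00%), and also for the running and sActRIIB-Fc main effects over 10 arrays against 10 (background 0.0112% and 0.00%) and for their interaction (background 0.00%). At an unadjusted p under 0.05 the counts were 0, 1 and 2 of 49 for the single and combined treatments, beside 3.32%, 3.19% and 5.85% of all tested genes, and 2, 0 and 2 for the main effects and the interaction, beside 6.70%, 3.15% and 3.98%. Of the 49 intervals at 95%, 41 lay within 0.5 on the log2 scale of 0 for running, 42 for sActRIIB-Fc and 39 for both. For the main effects these were 47 and 48, and for the interaction 20.

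The genes with the lowest p are named without a call. Eif4g2 had levels of 8.63, 8.51, 8.71, 8.41 and 8.23 with PBS and 7.48, 7.82, 7.85, 8.55 and 8.27 with both treatments. Combined arrays 1 to 3 lay below the PBS range and arrays 4 and 5 within it, and the difference was -0.51 ± 0.19 (adjusted p = 0.83). Its running main effect was -0.38 ± 0.14 (adjusted p = 0.59). Eif2d had 8.63, 8.75, 8.50, 8.42 and 8.75 with PBS and 8.94, 8.98, 8.68, 8.81 and 8.69 with both, overlapping groups with a difference of 0.21 ± 0.09 (adjusted p = 0.83). Next by p in this comparison was Eef1g at -0.15. A dimmer kept probe of Eif2d, detected on all 24 arrays, gave -0.04 with both treatments and -0.04 with running alone. With sActRIIB-Fc alone Eif2s3x differed by 0.30 ± 0.13, Eif3h by -0.38 and Eif3d by -0.20 (adjusted p = 0.9993 for each), and with running alone Eif3h by -0.30, Eif2d by 0.14 and Eif4a3 by -0.14 (adjusted p = 0.9975 for each). In the running main effect Eif2d (0.17) and Eif4e3 (-0.12) stood beside Eif4g2, and in that of sActRIIB-Fc Eif3a (0.13), Eif2s3x (0.11) and Eif3j1 (-0.10). For the interaction Eif3k gave 0.56 ± 0.21, Eif2s2 -0.32 ± 0.15 and Eif2s3x -0.36 ± 0.18 (adjusted p = 0.93 for each).

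For the genes tied to mTORC1 output the arrays gave mRNA only, and phosphorylation was not measured. The SE of a treatment difference was 0.12 for Eif4ebp1, 0.18 for Eef2k and 0.20 for Eef2. Eif4ebp1 differed from PBS-injected mdx by -0.16 with running, -0.08 with sActRIIB-Fc and 0.02 with both, Eef2k by 0.03, 0.00 and -0.18, and Eef2 by -0.24, -0.10 and -0.29. The interval for Eef2k ran from -0.35 to 0.41 with running and from -0.38 to 0.38 with sActRIIB-Fc, and changes larger than those bounds lie outside it. The bounds are not limits of detection with 5 mice a group. Eif4g2, at -0.51 with an SE of 0.19 for both treatments, did not pass after adjustment. No tested gene of the neighbouring lists passed in the 3 treatment comparisons either.

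**Figure D4:**
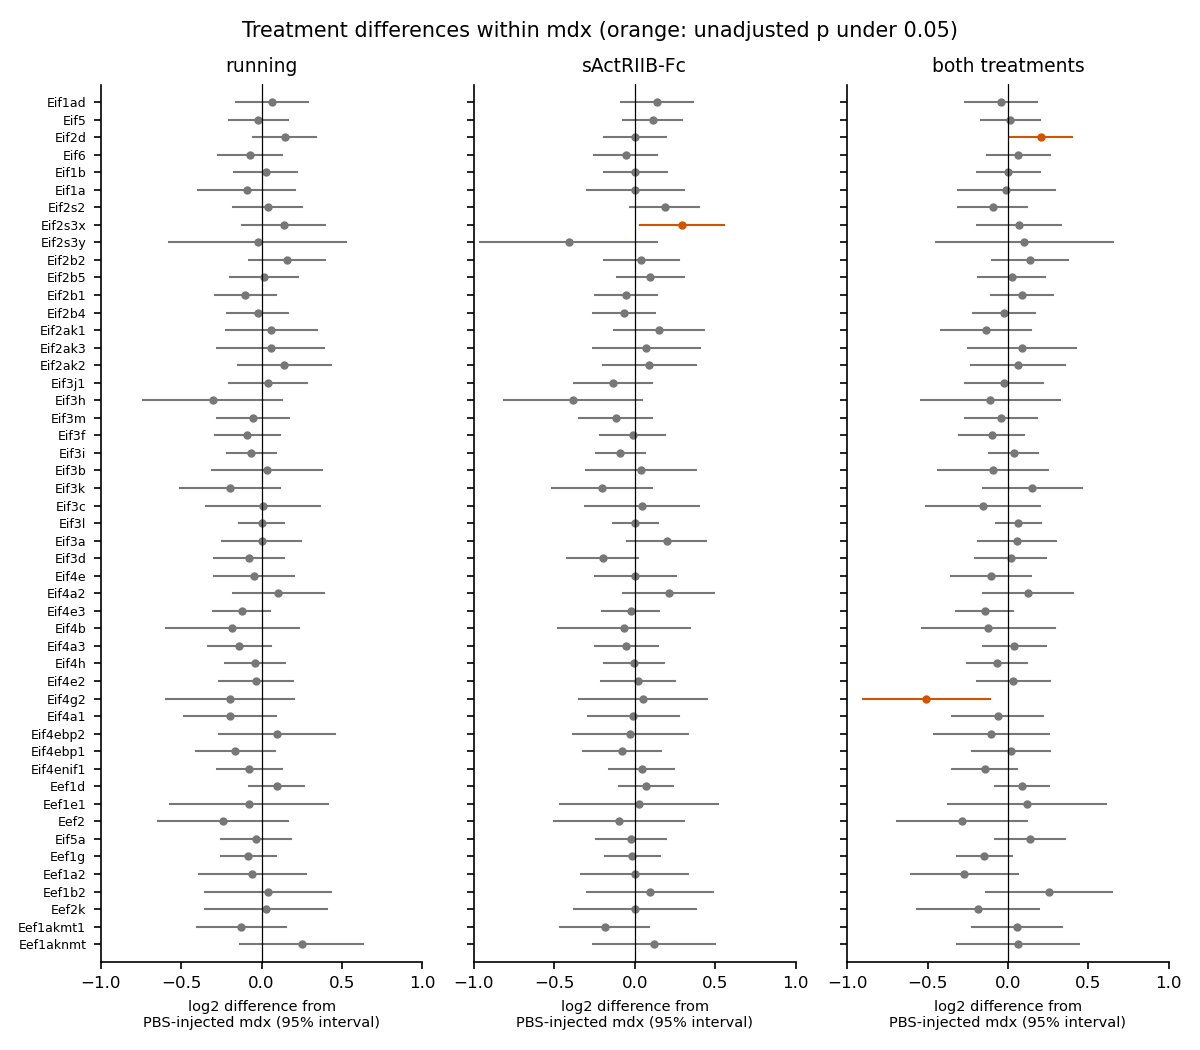
Log2 difference from PBS-injected mdx (n = 5 in each group) for the 49 factor genes after running, sActRIIB-Fc or both, with 95% intervals as lines. Orange marks an unadjusted p under 0.05 (Eif2s3x with sActRIIB-Fc, Eif2d and Eif4g2 with both), and 0 genes passed after adjustment.

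Levels across the 24 arrays were also used to name the genes whose pattern was most like that of Eef1a2 and Eif4ebp1. For Eef1a2 the 5 highest Pearson correlations were with Rnf123 (0.93), Acvr2b, Rtl8a and Rnpepl1 (0.92 each) and Pygm, muscle glycogen phosphorylase (0.91). For Eif4ebp1 they were lower, with Cyp11b2 and Slc7a10 at 0.65, Fam160b1 and Rabgef1 at 0.64 and Retnla at 0.62. The arrays share groups and a normalization, and these values are a description.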

How the data were processed

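The authors deposited a table of bead-level summarised signal intensity and a detection p-value for each probe on 24 arrays, per the file headers; the intensity values were not normalized. A second deposited table holds log2 values, which equal quantile-normalized log2 intensity without background correction to within 0.005. The factor genes, the role groups, the pathway lists, the markers and the gene pairs were chosen with earlier results of these data known.

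Intensity was background-corrected with the normexp method from the detection p-values (offset 16), quantile-normalized and log2-transformed with limma 3.58.1 in R 4.3.3. Of 25697 probes, 12623 had a detection p under 0.05 on at least 4 arrays. Of these, 11919 had a single gene symbol in the platform annotation, and the brightest stood for each of 8945 genes. All 58 factor genes matched RefSeq's table, which supplied the promoter windows. The probe choice matters for 18 factor genes with over 1 kept probe, of which 6 had a probe of the other sign in PBS-injected mdx against wild type.

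A model with 5 group means was fitted to all 24 arrays with lmFit and eBayes, and p-values were adjusted over 8945 genes (Benjamini-Hochberg, 0.05). The code was tested on simulated data. Named genes were a preset list of central factors, every gene past the threshold, and the 3 lowest p where fewer than 3 passed. Alternatives were no background correction, the deposited log2 values, 2 median scalings (the one on detected probes was chosen after seeing the data), no detection filter, the mean of a gene's probes, only the compared groups, 2 covariates, array weights, arrays left out and a replicate block. Arrays carry no read depth, and their number limits the precision.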

Additional observations from a re-analysis of the deposited data

Results flagged for a closer look

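In 16 of 245 groups of arrays (6.53%) a single array stood apart from the others of its group by Dixon's criterion, where chance gives about 1 in 20. In wild type these were Eif4e on array 4 (6.84, others 7.31 to 7.33), Eif4e2 on array 3 (9.3, others 8.96 to 9.01), Eif4g2 on array 3 (7.56, others 8.19 to 8.29) and Eif3m on array 2 (5.32, others 5.57 to 5.59). With PBS they were Eif2s3y on array 4 (9.24, others 8.89 to 8.95) and Eif3m on array 4 (5.08, others 5.32 to 5.39). With running they were Eif4a2 on array 5 (13.15, others 12.31 to 12.54), Eif2ak3 on array 5 (5.64, others 5.84 to 5.92), Eif3b and Eif4g2 on array 1 (8.57, others 8.99 to 9.12, and 7.75, others 8.34 to 8.55) and Eif4e3 on array 4 (9.47, others 9.67 to 9.74). With sActRIIB-Fc they were Eef1d on array 5 (12.16, others 12.09 to 12.11), Eif2ak2 on array 4 (7.35, others 7.61 to 7.66) and Eif4b on array 3 (5.96, others 6.42 to 6.59). With both treatments they were Eef1d on array 1 (11.92, others 12.15 to 12.2) and Eif3j1 on array 3 (6.67, others 7.15 to 7.25).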

How the results depend on the processing

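Scaling to equal medians of the detected probes, chosen after seeing the data, called 24, 26, 30 and 25 factor genes against wild type in place of 14, 16, 14 and 17 (PBS, running, sActRIIB-Fc, both), and left Eif3d at -0.00785 with both treatments. With the 4 arrays richest in hepatocyte transcripts left out, running against wild type gave 9, and a model of the combined and wild-type arrays alone gave 9 for the combined treatment. Leaving out 1 array at a time gave 12 to 15 with PBS, 10 to 15 with running (10 without wild type 1 or 4), 12 to 15 with sActRIIB-Fc and 14 to 21 with both. All 6 treatment comparisons stayed at 0 under every setting run. Of 2205 values of single genes and pairs under alternatives, 1992 kept their side of the threshold, 196 lost the call, 16 gained one and 1 called value turned, which was Eif3d above. Among those that kept their side, 22 values that were not called changed sign, in Eef1a2, Eif2ak3, Eif5a, Eif6, Eef1b2, Eef1d and Eif3a with PBS. The causes were not tested. The replicate numbers were not taken to pair the mice, since no label gives them a meaning, and the main model holds no term for them. Yet 25 of 46 same-number pairs correlated above 0.1 (lowest -0.439, median 0.116, other pairs -0.049), with 14 of 24 arrays closest to their own number. That hints at a shared effect of the numbers in the data. The raw median signal was highest on array 1 of every group. It went from 90.55 on array 1 to 72.32 on array 4 in wild type, and from 98.98 on array 1 to 79.1 on array 5 with PBS. With the replicate block the counts against wild type were 16, 16, 15 and 22, and 0 for the treatments. Of the 14 genes called with PBS, the median-signal covariate ended Eif2b2 and Eif2b5. For the gene pairs, an mdx array left out raises the smallest exact p the design allows. Probes near background limit what can be said of the 9 untested genes.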

Other observations

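Where both treatments were combined, arrays 1 to 3 and arrays 4 and 5 differed in several factor genes, which widened the spread of that group. Eef2, the ribosome translocase, stood at 9.44, 9.79 and 9.55 on arrays 1 to 3 and 10.73 and 10.27 on the others. Eef1a2 stood at 13.34, 13.95 and 13.81 against 14.61 and 14.40, and Eef2k at 7.40, 7.81 and 7.39 against 8.56 and 8.37. Eef1b2, a subunit of the exchange factor for eEF1A, ran the other way, at 11.93, 11.58 and 11.68 against 10.47 and 10.96. The raw median signal was 98.39, 89.24 and 89.06 on arrays 1 to 3 and 77.31 and 75.96 on arrays 4 and 5. Detected probes numbered 11657, 11580 and 11971 beside 11154 and 11345. In the PBS group the raw median signal also fell, from 98.98 on array 1 to 79.1 on array 5. The summed macrophage signal of the combined group ranged from 4980 to 32700, wider than the 10500 to 17400 of the PBS group, and was not matched to these arrays. The sets of arrays 1 to 3 and of arrays 4 and 5 were noticed in the data, are no groups of the study and were not tested.

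Eif2s3y, the Y-linked copy of the eIF2 gamma subunit, had a level of 7.06 on array 2 of the sActRIIB-Fc group, whose other arrays held 8.56 to 9.43, while Eif2s3x stood at 8.90 there.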
